A study of Mus musculus with 28 samples.

Results

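The 10 genes *Ddit3*, *Atf3*, *Atf4*, *Atf5*, *Trib3*, *Hspa5*, *Xbp1*, *Asns*, *Chac1* and *Sesn2* were followed as readouts of the unfolded protein response and the integrated stress response in tibialis anterior (TA) muscle. They were chosen by name from these pathways, with earlier results of these data known. All 10 were found among the 55359 genes present in both count tables. RNA-seq counts came from 28 mice in 7 groups of 4. In the *Dnm2* cohort, WT mice and *Dnm2* S619L/+ mice, heterozygous for a knock-in point mutation of dynamin 2, received either placebo or tamoxifen. In the *Bin1* cohort, the groups were WT mice on placebo, *Bin1* mck-/- mice on placebo and *Bin1* mck-/- mice on tamoxifen, and a WT group on tamoxifen was not analysed here. *Bin1* mck-/- mice lack *Bin1* where Cre is driven by the muscle creatine kinase promoter, that is in muscle fibers and not in the other cells of the tissue. All mice were C57BL/6N and 8 weeks old, and tamoxifen, which binds the estrogen receptor, was given in the diet. For libraries of the *Dnm2* cohort 300 ng of RNA were fragmented for 2 min, and for the *Bin1* cohort 350 ng for 8 min, so mouse model and library protocol change together and every test was made within a cohort.

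In the unfolded protein response, misfolded proteins in the endoplasmic reticulum (ER) draw the chaperone BiP, the product of *Hspa5*, away from the sensors PERK, IRE1 and ATF6. IRE1 then splices the mRNA of *Xbp1* into the form that encodes an active transcription factor, and ATF6 and XBP1 raise chaperone and degradation genes. In the integrated stress response, PERK and the kinases HRI, PKR and GCN2 phosphorylate the initiation factor eIF2, which lowers general translation and favors translation of *Atf4*, whose product raises *Atf5*, *Ddit3* (CHOP), *Atf3*, *Trib3*, *Asns*, *Chac1* and *Sesn2*. Read counts per gene show mRNA level only: neither eIF2 phosphorylation, nor translation of *Atf4*, nor splicing of *Xbp1* was measured.

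Among these genes, *Xbp1* was the one whose mRNA rose most steadily: it was higher in *Dnm2* S619L/+ mice and higher in WT mice on tamoxifen, each against WT placebo. *Ddit3* fell in WT mice on tamoxifen, and *Atf3* was higher in *Dnm2* S619L/+ mice on tamoxifen than in WT placebo mice, a call that was lost without 1 of those mice. No member was called in the *Bin1* cohort, where *Chac1* and *Atf3* had the largest differences. The remaining members were not called in any comparison.

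In numbers, a gene was called when its adjusted p was under 0.05 in edgeR's quasi-likelihood test with Benjamini-Hochberg adjustment over all genes tested in a cohort, and adjusted p below is from this test unless DESeq2 is named. In *Dnm2* S619L/+ placebo against WT placebo, 1 of 10 members was called (*Xbp1*, higher), where 12.1% of the 15439 genes tested were called higher and 9.81% lower. In WT tamoxifen against WT placebo, 2 of 10 were called (*Xbp1* higher, *Ddit3* lower), beside 15.8% higher and 11.9% lower among all genes. In *Dnm2* S619L/+ tamoxifen against *Dnm2* S619L/+ placebo, 0 of 10 were called, with 2 at an unadjusted p under 0.05 and 0 called by DESeq2, beside 5.22% higher and 3.05% lower. In *Dnm2* S619L/+ tamoxifen against WT placebo, 2 of 10 were called (*Xbp1* and *Atf3*, both higher), beside 15.8% higher and 13.1% lower. The test of whether tamoxifen acted differently in the 2 genotypes, the interaction, called 0 of 10 with 2 at an unadjusted p under 0.05 and 1 called by DESeq2 (*Xbp1*), beside 0.0324% higher and 0.227% lower.

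In the *Bin1* cohort, 0 of 10 members were called in *Bin1* mck-/- placebo against WT placebo, with 4 at an unadjusted p under 0.05 and 3 called by DESeq2 (*Atf3*, *Atf5*, *Chac1*), beside 1.99% of the 14841 genes tested called higher and 0.627% lower. Tamoxifen in *Bin1* mck-/- mice, against placebo, called 0, with 5 at an unadjusted p under 0.05 and 2 called by DESeq2 (*Atf4*, *Chac1*), beside 1.52% higher and 1.61% lower. For *Bin1* mck-/- tamoxifen against WT placebo, 0 were called, with 2 at an unadjusted p under 0.05 and 0 by DESeq2, beside 0.465% higher and 0.384% lower. The shares of members called lay near those of all genes in each comparison. Groups that did not overlap were common among all genes. In *Dnm2* S619L/+ placebo against WT placebo, 2212 of 15439 genes lay wholly higher and 1634 wholly lower, beside 1 and 0 members. The numbers were 2718 and 2130 (members 1 and 2) in WT tamoxifen against WT placebo. They were 1960 and 2070 (members 1 and 0) in *Dnm2* S619L/+ tamoxifen against WT placebo. Of 14841 genes, they were 1349 and 1107 (members 1 and 2) in *Bin1* mck-/- placebo against WT. Under tamoxifen in *Bin1* mck-/- they were 696 and 758 (members 2 and 0). The median log2 fold change of the 10 members lay between -0.13 and 0.27 over the 8 comparisons, beside medians of all genes between -0.04 and 0.03. All 10 members passed the filter on low counts in both cohorts, with 12 reads as the fewest of any member in any mouse (*Trib3*).

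**Figure D1:**
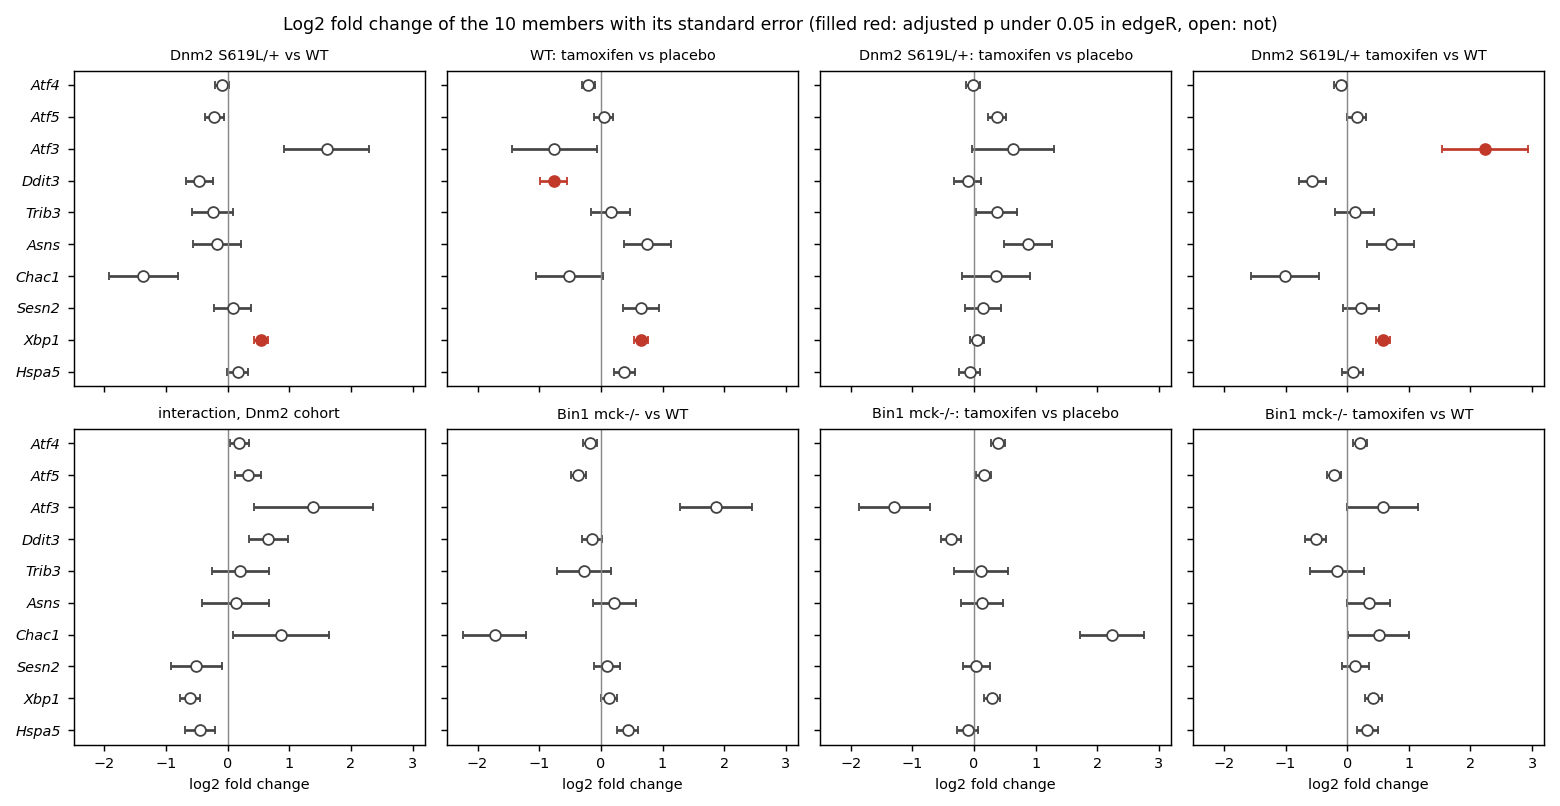
Log2 fold change (horizontal axis) of each of the 10 genes in the comparisons of both cohorts, with standard errors as bars, in 1 panel per comparison. Filled red points are the genes called by edgeR at an adjusted p under 0.05 and open points are not called. The bars of *Xbp1* in the *Dnm2* cohort are short, while those of *Atf3* and *Chac1* are wide. In *Bin1* mck-/- placebo against WT placebo *Atf3* lies at 1.87 and *Chac1* at -1.73.

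The level of each gene per kilobase gives their order in resting muscle. In WT placebo mice of the *Dnm2* cohort, *Atf4* was the most abundant at 74.8 ± 3.89 CPM per kilobase (SD, n = 4), where CPM is the count per 1000000 reads of the library, and *Hspa5* followed at 50.8 ± 5.64. *Atf5* stood at 29.1 ± 6.28, *Chac1* at 23.5 ± 9.59 and *Xbp1* at 19.9 ± 2.90 CPM per kilobase, levels that do not differ beyond their spread from one to the next. *Ddit3* at 9.39 ± 2.73 and *Atf3* at 4.30 ± 1.23 came next, and *Sesn2* (0.960 ± 0.196), *Asns* (0.666 ± 0.319) and *Trib3* (0.490 ± 0.159) were near the bottom. In WT mice of the *Bin1* cohort *Atf4* was also first, at 80.1 CPM per kilobase, and *Asns* last at 0.588, with *Atf5* (49.2) ahead of *Hspa5* (42.2). Below, levels are CPM scaled by TMM, without length, and are compared between mice for 1 gene at a time.

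**Figure D2:**
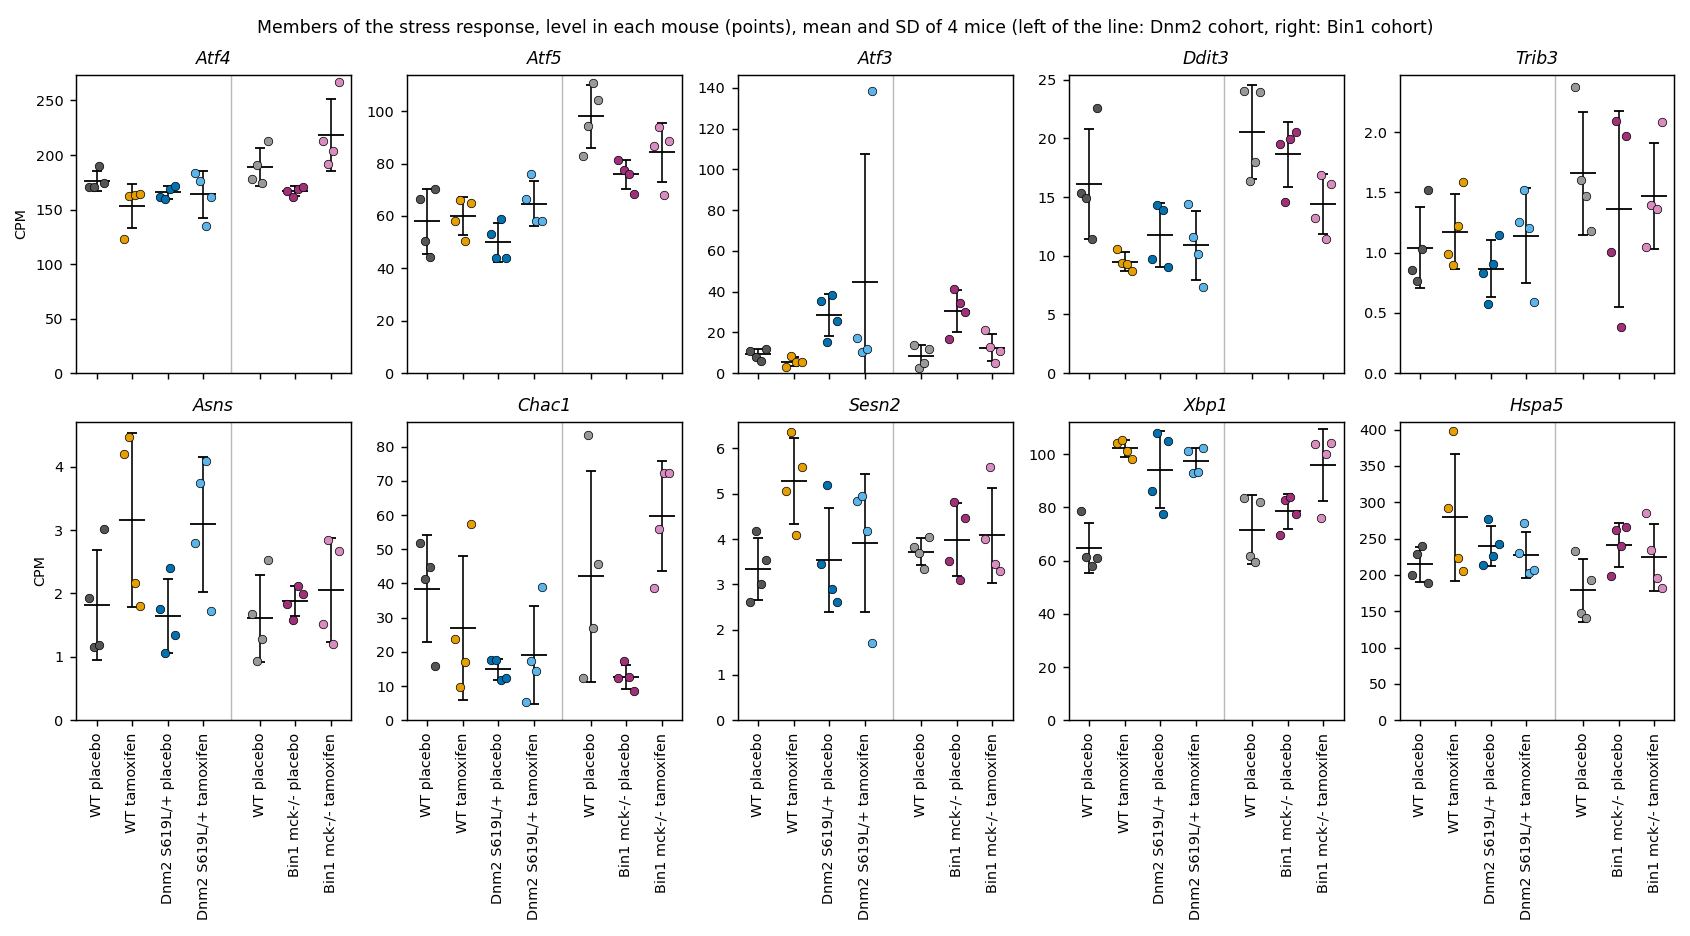
Level in CPM (vertical axis, 1 panel per gene) of the 10 genes in every mouse, with the 7 groups along the horizontal axis and the mean and SD of each group of 4 as lines. *Xbp1* of WT tamoxifen mice lies above that of all WT placebo mice, and 1 *Dnm2* S619L/+ tamoxifen mouse stands apart for *Atf3* at 139 CPM.

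*Xbp1* encodes the transcription factor of the IRE1 arm. In the *Dnm2* cohort it stood at 78.7, 61.5, 58.1 and 60.8 CPM in WT placebo mice 1 to 4, and at 86.3, 108, 77.6 and 105 CPM in *Dnm2* S619L/+ placebo mice 1 to 4. The ranges touched only through WT placebo mouse 1 and *Dnm2* S619L/+ placebo mouse 3, and the group means were 64.8 ± 9.40 and 94.1 ± 14.5 CPM (SD, n = 4 each). *Xbp1* was higher in *Dnm2* S619L/+ mice by 0.54 ± 0.11 on the log2 scale (SE), with an adjusted p of 0.00404. On tamoxifen it stood at 104, 105, 101 and 98.2 CPM in WT mice and at 101, 93.0, 93.1 and 102 CPM in *Dnm2* S619L/+ mice. All 8 of these mice lay above every WT placebo mouse. Against WT placebo, 2718 of the 15439 genes tested lay wholly higher in WT tamoxifen and 1960 in *Dnm2* S619L/+ tamoxifen mice.

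Against WT placebo, *Xbp1* was higher by 0.66 ± 0.11 (adjusted p 0.000914) in WT tamoxifen mice and by 0.59 ± 0.11 (adjusted p 0.0018) in *Dnm2* S619L/+ tamoxifen mice, as log2 fold changes. These 3 comparisons share the WT placebo mice. Each of the 3 calls was kept in all 24 alternatives, including the omission of any 1 mouse. Within *Dnm2* S619L/+ mice, tamoxifen gave a log2 fold change of 0.05 ± 0.11 (adjusted p 0.827). The difference between the responses of the 2 genotypes was -0.61 ± 0.16 with an unadjusted p of 0.00162 and an adjusted p of 0.134, and it was called by DESeq2 (adjusted p 0.0307) and without *Dnm2* S619L/+ placebo mouse 3 (adjusted p 0.0325).

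Turning to the *Bin1* cohort, *Xbp1* stood at 83.5, 61.8, 59.5 and 81.8 CPM in WT mice 5 to 8, at 69.6, 82.8, 83.8 and 77.5 in *Bin1* mck-/- placebo mice and at 104, 76.0, 100 and 104 in *Bin1* mck-/- tamoxifen mice. WT mice 5 and 8 lay within the range of the *Bin1* mck-/- placebo mice and the other WT mice (61.8 and 59.5 CPM) below it. Of the tamoxifen mice, 3 of 4 lay above all the others. The log2 fold changes were 0.13 ± 0.14 (adjusted p 0.646) for *Bin1* mck-/- against WT, 0.29 ± 0.14 (adjusted p 0.241) for tamoxifen in *Bin1* mck-/- and 0.42 ± 0.14 (adjusted p 0.168) for *Bin1* mck-/- tamoxifen against WT.

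*Hspa5*, which encodes the main ER chaperone and is a target of both ATF6 and XBP1, did not pass the test beside *Xbp1*. It stood at 200, 229, 240 and 190 CPM in WT placebo, 292, 398, 223 and 205 in WT tamoxifen, 213, 276, 227 and 242 in *Dnm2* S619L/+ placebo and 231, 272, 203 and 207 in *Dnm2* S619L/+ tamoxifen mice. WT tamoxifen mice 1 and 2 were the highest and mice 3 and 4 lay among the controls, with a log2 fold change of 0.38 ± 0.18 (adjusted p 0.116, or 0.0406 without WT tamoxifen mouse 4). *Xist*, which is expressed in female cells, was 181.8 and 143.6 CPM in WT tamoxifen mice 1 and 2. It was 0.4237 and 0.9665 CPM in mice 3 and 4. In WT placebo, mice 1 and 4 with *Xist* had the lower *Hspa5* (200 and 190 CPM). The part of sex in these levels was not tested. *Hspa5* of the *Bin1* cohort was at 234, 148, 140 and 193 CPM in WT, 198, 261, 239 and 265 in *Bin1* mck-/- placebo and 285, 234, 196 and 182 in *Bin1* mck-/- tamoxifen mice. WT mouse 5 overlapped the *Bin1* mck-/- mice, and the log2 fold change of *Bin1* mck-/- placebo against WT was 0.43 ± 0.18 (adjusted p 0.181).

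*Atf4*, the central factor of the integrated stress response, had narrow spreads and small differences. It stood at 171, 171, 190 and 174 CPM in WT placebo and at 123, 162, 163 and 165 in WT tamoxifen mice. Every WT tamoxifen mouse lay below every WT placebo mouse, and mouse 1 stood apart from the other 3, with a log2 fold change of -0.20 (adjusted p 0.175). Such full separation downward held for 2130 of the 15439 genes tested. In *Dnm2* S619L/+ mice *Atf4* ranged from 160 to 172 CPM on placebo and from 135 to 183 on tamoxifen, around group means of 166 ± 5.64 and 164 ± 21.5.

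*Atf4* of the *Bin1* cohort stood at 178, 190, 174 and 213 CPM in WT, 167, 161, 169 and 171 in *Bin1* mck-/- placebo and 212, 192, 204 and 267 in *Bin1* mck-/- tamoxifen mice. The placebo *Bin1* mck-/- mice lay below both other groups without overlap. The log2 fold change was -0.18 (adjusted p 0.418) against WT and 0.39 ± 0.12 for tamoxifen in *Bin1* mck-/- mice (adjusted p 0.0777, 0.0171 by DESeq2, and 0.0335 without *Bin1* mck-/- tamoxifen mouse 2). The latter is therefore a difference near the threshold.

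*Atf5*, a related factor that is also translated under eIF2 phosphorylation, lay between 43.8 and 76.0 CPM in all mice of the *Dnm2* cohort. Its log2 fold changes there ranged from -0.22 to 0.37 and no adjusted p was under 0.14. *Atf5* of the *Bin1* cohort was at 82.9, 94.2, 111 and 104 CPM in WT and at 81.6, 77.5, 76.0 and 68.3 CPM in *Bin1* mck-/- placebo mice. All 4 *Bin1* mck-/- mice lay below all WT mice, with a log2 fold change of -0.37 ± 0.12 (adjusted p 0.104, 0.0487 by DESeq2 and 0.0376 with only the groups compared). On tamoxifen *Atf5* stood at 86.7, 94.0, 68.2 and 88.7 CPM, between and across both groups.

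*Ddit3* encodes CHOP, which promotes apoptosis when ER stress lasts. It stood at 15.3, 14.9, 11.5 and 22.6 CPM in WT placebo and at 10.6, 9.36, 9.28 and 8.73 CPM in WT tamoxifen mice. All tamoxifen mice were below all placebo mice, and WT placebo mouse 4 was the highest of the cohort. The log2 fold change was -0.76 ± 0.22 (adjusted p 0.0177), and 23 of 24 alternatives kept the call; without WT placebo mouse 4 it was -0.56 (adjusted p 0.0611). In *Dnm2* S619L/+ mice *Ddit3* stood at 9.76, 14.3, 13.9 and 9.02 CPM on placebo and at 14.4, 11.6, 10.2 and 7.38 on tamoxifen.

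Against WT placebo, the log2 fold change of *Ddit3* was -0.46 (adjusted p 0.14) in *Dnm2* S619L/+ placebo mice and -0.57 (adjusted p 0.0631) in *Dnm2* S619L/+ tamoxifen mice. The latter was called without WT placebo mouse 3 (adjusted p 0.0381), without *Dnm2* S619L/+ tamoxifen mouse 1 (0.0317) and by DESeq2 (0.0435). The interaction was 0.66 (adjusted p 0.368), so a difference between the genotypes in the response to tamoxifen was not called. Levels of *Ddit3* in the *Bin1* cohort ranged from 16.4 to 24.0 CPM in WT, 14.6 to 20.6 in *Bin1* mck-/- placebo and 11.4 to 16.9 in *Bin1* mck-/- tamoxifen mice. The tamoxifen mice were lowest on average, at 14.4 ± 2.53 CPM, with a log2 fold change of -0.37 (adjusted p 0.22) against *Bin1* mck-/- placebo and -0.51 (adjusted p 0.167) against WT.

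*Atf3* encodes a factor that is induced by many stresses, including nerve injury. It stood at 11.0, 8.09, 6.09 and 11.8 CPM in WT placebo and at 35.2, 15.2, 38.4 and 25.8 CPM in *Dnm2* S619L/+ placebo mice. All *Dnm2* S619L/+ placebo mice lay above all WT placebo mice, while the test across the cohort gave a log2 fold change of 1.61 ± 0.69 with an adjusted p of 0.104 (0.00999 with only the groups compared). On tamoxifen *Atf3* stood at 17.4, 10.2, 11.8 and 139 CPM in *Dnm2* S619L/+ mice and at 3.02, 8.25, 5.70 and 5.32 CPM in WT mice. Mouse 4 stood far above the other *Dnm2* S619L/+ tamoxifen mice, and mice 2 and 3 of this group lay within the range of the WT placebo mice.

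The call of *Atf3* in *Dnm2* S619L/+ tamoxifen against WT placebo (log2 fold change 2.24 ± 0.70, adjusted p 0.0254) was kept in 17 of 24 alternatives and was lost without *Dnm2* S619L/+ tamoxifen mouse 4, where the log2 fold change was 0.48 (adjusted p 0.292). It was also lost without WT placebo mouse 2 (adjusted p 0.0695) or mouse 3 (0.0743). Without *Dnm2* S619L/+ tamoxifen mouse 4, *Atf3* was called higher in *Dnm2* S619L/+ placebo against WT placebo at the same fold change (1.61, adjusted p 0.00298) and lower under tamoxifen in *Dnm2* S619L/+ mice (log2 fold change -1.12, adjusted p 0.0409), where all 4 tamoxifen mice together gave 0.64 (adjusted p 0.59). *Atf3* of the 3 other tamoxifen mice lay below that of 3 of the 4 placebo mice.

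*Atf3* of the *Bin1* cohort stood at 13.9, 2.30, 5.15 and 12.0 CPM in WT, at 16.9, 41.3, 34.6 and 30.0 in *Bin1* mck-/- placebo and at 21.2, 12.9, 5.04 and 10.9 in *Bin1* mck-/- tamoxifen mice. All placebo *Bin1* mck-/- mice lay above all WT mice, and only tamoxifen mouse 1 reached the range of the placebo *Bin1* mck-/- mice. The log2 fold change was 1.87 ± 0.58 against WT (adjusted p 0.114, 0.0226 by DESeq2) and -1.29 ± 0.57 for tamoxifen (adjusted p 0.236).

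Among the targets, *Trib3* encodes a pseudokinase that restrains ATF4 and CHOP, and it was low throughout, between 0.380 and 2.38 CPM in the 28 mice. Its group means were 1.04 (WT placebo), 1.17 (WT tamoxifen), 0.866 (*Dnm2* S619L/+ placebo) and 1.14 CPM (*Dnm2* S619L/+ tamoxifen), and 1.66, 1.36 and 1.47 CPM in WT, *Bin1* mck-/- placebo and *Bin1* mck-/- tamoxifen mice of the *Bin1* cohort. Groups overlapped in all comparisons and its lowest adjusted p was 0.493.

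*Asns* encodes asparagine synthetase. It stood at 1.93, 1.16, 1.19 and 3.02 CPM in WT placebo, 4.20, 4.47, 2.17 and 1.79 in WT tamoxifen, 1.76, 1.06, 2.40 and 1.35 in *Dnm2* S619L/+ placebo and 2.79, 3.75, 4.09 and 1.73 in *Dnm2* S619L/+ tamoxifen mice. In WT 2 of 4 and in *Dnm2* S619L/+ 3 of 4 tamoxifen mice lay above all placebo mice of the same genotype, and the others lay among them. These 2 WT mice, 1 and 2, were those of their group with *Xist*. In WT placebo, mice 1 and 4 with *Xist* lay above mice 2 and 3 without it. In *Dnm2* S619L/+ placebo, the mice with *Xist* (1.76 and 1.35 CPM) lay between those without (1.06 and 2.40 CPM). The part of sex in this split was not tested. Tamoxifen gave log2 fold changes of 0.75 ± 0.38 in WT (adjusted p 0.143, or 0.0484 without WT placebo mouse 4) and 0.88 ± 0.39 in *Dnm2* S619L/+ mice (adjusted p 0.158). Among the *Bin1* cohort it ranged from 0.940 to 2.85 CPM with no log2 fold change above 0.35.

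*Chac1* encodes an enzyme that degrades glutathione and is among the genes most responsive to ATF4. It stood at 51.8, 41.4, 44.8 and 15.8 CPM in WT placebo and at 17.5, 17.6, 11.9 and 12.4 CPM in *Dnm2* S619L/+ placebo mice. WT placebo mouse 4 lay inside the range of the *Dnm2* S619L/+ mice and the 3 others far above it, with a log2 fold change of -1.37 ± 0.56 (adjusted p 0.092, or 0.0226 with only the groups compared). On tamoxifen the spread was wide, with 23.7, 9.63, 17.1 and 57.5 CPM in WT and 5.46, 17.2, 14.3 and 39.0 CPM in *Dnm2* S619L/+ mice, and neither response to tamoxifen was called (-0.51, adjusted p 0.517, and 0.36, adjusted p 0.735). *Dnm2* S619L/+ tamoxifen against WT placebo gave -1.01 (adjusted p 0.184, or -1.64 with 0.0383 without *Dnm2* S619L/+ tamoxifen mouse 4).

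*Chac1* of the *Bin1* cohort stood at 12.3, 83.4, 26.9 and 45.6 CPM in WT, at 12.4, 17.2, 12.5 and 8.50 in *Bin1* mck-/- placebo and at 38.6, 56.0, 72.4 and 72.2 in *Bin1* mck-/- tamoxifen mice. All tamoxifen mice lay above all placebo *Bin1* mck-/- mice, and WT mice spread over both. The log2 fold change of *Bin1* mck-/- placebo against WT was -1.73 ± 0.51 (adjusted p 0.103, 0.00961 by DESeq2, and 0.0395 without WT mouse 5). For tamoxifen in *Bin1* mck-/- it was 2.23 ± 0.52 with an adjusted p of 0.0509, just above the threshold, and 8 of 19 alternatives called it (adjusted p from 0.000354 to 0.136), among them the fits without *Bin1* mck-/- tamoxifen mouse 1 (0.0492) or 2 (0.0467) and without WT mouse 5 (0.0167) or 6 (0.0262).

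*Sesn2* encodes sestrin 2, a stress-induced inhibitor of mTORC1. It stood at 2.62, 4.19, 3.004 and 3.53 CPM in WT placebo and at 5.07, 6.36, 4.10 and 5.59 CPM in WT tamoxifen mice. Only WT tamoxifen mouse 3 and WT placebo mouse 2 overlapped, and the log2 fold change was 0.66 ± 0.29 (adjusted p 0.102, 0.0277 with only the groups compared, and 0.0296 without *Dnm2* S619L/+ tamoxifen mouse 4). In the other comparisons of 2 groups its log2 fold change ranged from 0.04 to 0.22.

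Mice of a group differed in several members at once. *Dnm2* S619L/+ tamoxifen mouse 4, with the highest *Atf3* (139 CPM) and *Chac1* (39.0) of its group, had the lowest *Ddit3* (7.38), *Sesn2* (1.70), *Asns* (1.73) and *Trib3* (0.587). WT placebo mouse 4 of the *Dnm2* cohort had the highest *Ddit3* (22.6), *Atf3* (11.8), *Atf5* (70.5), *Asns* (3.02) and *Trib3* (1.52) of its group and the lowest *Chac1* (15.8). In these 2 mice *Ddit3*, *Asns* and *Trib3* stood at the same end of their group and *Chac1* at the other. How the members vary together over all mice was not tested. The 2 members with the widest differences between group means, *Atf3* and *Chac1*, were those for which genes of like pattern were sought, by the root mean square difference (RMS) over the 7 group means of log2 CPM, each taken relative to WT placebo of its cohort. Among 14572 genes, *Tppp3* (RMS 0.273) and *Ccl2* (0.290), the latter a chemokine that attracts monocytes, were nearest to *Atf3*, and *Klhl33* (0.321) and 0610040F04Rik (0.326) were nearest to *Chac1*. The *Atf3* mean of *Dnm2* S619L/+ tamoxifen mice includes mouse 4 at 139 CPM, beside 10.2 to 17.36 CPM in the others. Whether such nearness exceeds chance was not tested.

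Promoter sequences are shown for 5 members: *Xbp1*, which was called in 3 comparisons, and *Hspa5*, *Atf3*, *Chac1* and *Asns*, the members that hold a match to a motif searched for. All 10 members were found in the RefSeq promoter table (GRCm38.p6), with 11 promoters since *Atf5* has 2. The 250 bases before each start were searched on both strands for TGATGNAA, the core of the element that ATF4 binds with C/EBP partners, for the ER stress element (ERSE: CCAAT and CCACG separated by 9 bases), for TGACGTCA, bound by CREB and ATF factors, and for TGACGTGG, bound by ATF6 and XBP1. The last 2 searches share their start TGACGT, and the opposite strand of TGACGTGG starts with the CCACG of the ERSE. Capitals mark the matches.

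*Xbp1*, chr11:5520391-5520640, plus strand, no match, so none of the letters is in capitals:
Xbp1: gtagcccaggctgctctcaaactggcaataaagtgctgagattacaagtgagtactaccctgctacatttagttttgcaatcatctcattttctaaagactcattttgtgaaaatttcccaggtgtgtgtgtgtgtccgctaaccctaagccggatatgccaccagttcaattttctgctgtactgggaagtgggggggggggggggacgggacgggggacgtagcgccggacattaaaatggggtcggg
*Hspa5*, chr2:34771840-34772089, plus strand, with capitals for the ERSE 65 bases before the start:
Hspa5: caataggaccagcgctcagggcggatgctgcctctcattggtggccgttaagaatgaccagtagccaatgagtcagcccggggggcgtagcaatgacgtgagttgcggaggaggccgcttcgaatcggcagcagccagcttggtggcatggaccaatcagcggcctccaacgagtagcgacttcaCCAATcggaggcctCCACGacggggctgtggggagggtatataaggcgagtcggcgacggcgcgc
*Atf3*, chr1:191183334-191183583, minus strand, with capitals for TTGCATCA, which is TGATGNAA read on the opposite strand, 110 bases before the start:
Atf3: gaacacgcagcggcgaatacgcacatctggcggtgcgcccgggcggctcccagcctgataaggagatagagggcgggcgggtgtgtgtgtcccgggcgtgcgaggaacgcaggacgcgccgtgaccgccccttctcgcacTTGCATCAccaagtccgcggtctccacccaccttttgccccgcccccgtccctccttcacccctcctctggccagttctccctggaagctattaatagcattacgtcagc
*Chac1*, chr2:119350992-119351241, plus strand, with capitals for TTGCATCA, 193 bases before the start:
Chac1: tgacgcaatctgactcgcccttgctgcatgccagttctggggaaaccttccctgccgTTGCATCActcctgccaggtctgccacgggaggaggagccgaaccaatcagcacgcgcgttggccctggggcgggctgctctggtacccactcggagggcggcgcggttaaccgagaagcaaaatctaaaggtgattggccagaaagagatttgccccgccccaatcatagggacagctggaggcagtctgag
*Asns*, chr6:7693210-7693459, minus strand, with capitals for TGATGAAA, 23 bases before the start:
Asns: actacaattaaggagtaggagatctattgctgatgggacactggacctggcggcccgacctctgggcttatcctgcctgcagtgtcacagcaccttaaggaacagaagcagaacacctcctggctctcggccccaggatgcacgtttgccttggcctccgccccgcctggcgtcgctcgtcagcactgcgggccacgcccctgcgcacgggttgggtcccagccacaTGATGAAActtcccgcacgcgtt

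TGATGNAA was present in 3.45% of 32851 promoters searched in the same way, and among the members in *Asns*, *Atf3* and *Chac1*. ERSE was present in 0.113% of promoters, and among the members in *Hspa5*. TGACGTCA (1.55% of promoters) and TGACGTGG (0.563%) were in no member promoter. So 4 of 10 members held any match, and the 3 with TGATGNAA did not share a direction: in *Bin1* mck-/- placebo against WT the log2 fold changes were 1.87 for *Atf3*, -1.73 for *Chac1* and 0.22 for *Asns*, none of them called by edgeR. A match is a description of letters in this window and says nothing of binding in these muscles.

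Lists of further genes of both pathways were counted in the same fits. Their counts stand beside the shares of all genes called, which against WT placebo were 12.1% higher and 9.81% lower in *Dnm2* S619L/+ placebo, 15.8% and 11.9% in WT tamoxifen, and 15.8% and 13.1% in *Dnm2* S619L/+ tamoxifen mice. The shares were smaller in the *Bin1* cohort, at 1.99% higher and 0.627% lower in *Bin1* mck-/- placebo against WT. They were 1.52% and 1.61% under tamoxifen in *Bin1* mck-/-, and 0.465% and 0.384% in *Bin1* mck-/- tamoxifen against WT. Of 18 sensors and regulators of eIF2, *Eif2ak1*, which encodes HRI, the kinase that senses heme and mitochondrial stress, was lower in *Dnm2* S619L/+ placebo (log2 fold change -0.42, adjusted p 0.00312), in WT tamoxifen (-0.24, adjusted p 0.0483) and in *Dnm2* S619L/+ tamoxifen mice (-0.56, adjusted p 0.000414), each against WT placebo. *Eif2ak3*, which encodes PERK, was higher in WT tamoxifen (1.01 ± 0.22, adjusted p 0.0034) and *Dnm2* S619L/+ tamoxifen mice (0.65, adjusted p 0.0353). It stood at 6.72 to 7.91 CPM in WT placebo and 12.2 to 20.01 CPM in WT tamoxifen mice, without overlap. *Eif2ak2* (PKR) and *Eif2ak4* (GCN2), *Ern1* (IRE1), *Atf6* and *Ppp1r15a*, the inducible subunit that dephosphorylates eIF2, were not called in any comparison. *Gdf15* and *Fgf21*, hormones released under this stress, did not pass the filter on low counts. Tamoxifen raised *Eif2b3*, a subunit of the exchange factor of eIF2, in *Bin1* mck-/- mice (0.84 ± 0.12, adjusted p 0.00207), from 15.2 to 17.0 CPM on placebo to 24.3 to 33.8 CPM.

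Of the 18 genes of that list, 0 were higher and 2 lower in *Dnm2* S619L/+ placebo against WT placebo, and 2 higher and 3 lower in WT tamoxifen. There were 1 higher and 5 lower in *Dnm2* S619L/+ tamoxifen against WT placebo, beside 15.8% higher and 13.1% lower among all genes. The 5 lower became 2 without WT placebo mouse 3, and 3 without WT placebo mouse 2 or *Dnm2* S619L/+ tamoxifen mouse 3. Under DESeq2, or without WT placebo mouse 4 or *Dnm2* S619L/+ tamoxifen mouse 4, 5 or 6 were lower in WT tamoxifen. Of the 14 genes listed for the sensors of the unfolded protein response, 12 were tested in the *Dnm2* cohort, with 1 higher in *Dnm2* S619L/+ placebo (*Traf2*, an adaptor of IRE1, 0.78, adjusted p 0.000112), 4 higher in WT tamoxifen, and 3 higher and 1 lower in *Dnm2* S619L/+ tamoxifen against WT placebo (7 higher without *Dnm2* S619L/+ tamoxifen mouse 4). *Creb3l1*, an ER-bound factor best known from bone-forming cells, rose from 3.80 to 6.14 CPM in WT placebo to 21.5 to 46.2 CPM in WT tamoxifen mice (2.64 ± 0.45, adjusted p 0.000914). None of the 11 tested in the *Bin1* cohort (0 of 11) was called in any comparison.

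Among amino acid and folate genes of the ATF4 program (22 of 23 tested), *Psat1*, an enzyme of serine synthesis, rose in both models and fell with tamoxifen in both. It stood at 1.30 to 2.23 CPM in WT placebo, 4.55 to 10.7 in *Dnm2* S619L/+ placebo and 2.99 to 3.67 in *Dnm2* S619L/+ tamoxifen mice, without overlap, with log2 fold changes of 2.00 ± 0.28 (adjusted p 0.000199) for the mutation and -1.12 ± 0.27 (adjusted p 0.0195) for tamoxifen. Its level in the *Bin1* cohort was 1.04 to 1.99 CPM in WT, 3.26 to 8.68 in *Bin1* mck-/- placebo and 1.71 to 3.19 in *Bin1* mck-/- tamoxifen mice, again with placebo *Bin1* mck-/- mice above both other groups (1.72 ± 0.32, adjusted p 0.0136, and -1.19, adjusted p 0.0481).

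No difference was called in *Asns*, and its pattern was not tested against that of *Psat1*. *Slc1a4*, a transporter of serine and alanine, rose from 0.316 to 1.47 CPM in WT placebo to 9.70 to 18.6 CPM in WT tamoxifen mice (3.57 ± 0.57, adjusted p 0.000593), and *Aldh18a1*, an enzyme of proline synthesis, by 1.54 (adjusted p 0.00102). *Shmt1*, an enzyme of folate metabolism, was lower in *Dnm2* S619L/+ placebo mice (-1.23, adjusted p 0.00162). In *Bin1* mck-/- mice tamoxifen raised *Aldh1l2*, a mitochondrial folate enzyme (1.77, adjusted p 0.0186), and *Gpt2*, an alanine aminotransferase (1.17, adjusted p 0.0477). The list counted 3 higher and 2 lower in *Dnm2* S619L/+ placebo, 9 and 3 in WT tamoxifen, 9 and 2 in *Dnm2* S619L/+ tamoxifen against WT placebo, and, of 20 tested, 2 and 0 in *Bin1* mck-/- placebo and 2 and 1 under tamoxifen in *Bin1* mck-/-. The counts of 9 fell to 5 without WT tamoxifen mouse 2 in the one case, and without WT placebo mouse 2 or *Dnm2* S619L/+ tamoxifen mouse 2 or 3 in the other.

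Of 17 stress effectors tested, *Gadd45a*, which restrains the cell cycle and is raised in denervated muscle, stood at 20.2 to 28.6 CPM in WT placebo and 70.4 to 105 CPM in *Dnm2* S619L/+ placebo mice (1.86 ± 0.24, adjusted p 0.000115). *Cebpg*, a partner of ATF4, was lower in *Dnm2* S619L/+ placebo (-0.80, adjusted p 0.00304) and in *Bin1* mck-/- placebo mice (-0.61, adjusted p 0.0119). *Nupr1*, a stress-induced chromatin protein, rose in WT tamoxifen mice from 6.06 to 9.67 CPM to 22.1 to 50.5 CPM (adjusted p 0.000745). *Eif4ebp1*, an inhibitor of cap-dependent translation and a target of ATF4, rose under tamoxifen in *Bin1* mck-/- mice from 26.2 to 39.5 CPM to 55.5 to 78.7 CPM (0.92 ± 0.15, adjusted p 0.00588). The list counted 3 higher and 2 lower in *Dnm2* S619L/+ placebo, 2 and 2 in WT tamoxifen, 5 and 1 in *Dnm2* S619L/+ tamoxifen against WT placebo, and 0 and 1 in *Bin1* mck-/- placebo. The 3 higher fell to 1 without any of WT placebo mice 1 to 3 or *Dnm2* S619L/+ placebo mouse 1 or 2, and the 5 higher to 3 without WT placebo mouse 1, 2 or 3 or *Dnm2* S619L/+ tamoxifen mouse 1 or 2, or with the replicate block.

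The 20 cytosolic tRNA synthetases, many of which ATF4 raises, had 2 higher and 7 lower in *Dnm2* S619L/+ placebo, 0 and 9 in WT tamoxifen and 0 and 13 in *Dnm2* S619L/+ tamoxifen, each against WT placebo. Their median log2 fold changes were -0.06, -0.28 and -0.29, beside 0.02, -0.04 and 0.01 over all genes. *Iars1* (-0.71, adjusted p 0.000478) and *Mars1* (-0.56, adjusted p 0.00175) fell in *Dnm2* S619L/+ placebo mice, and *Eprs1* (-0.62, adjusted p 0.00118) and *Sars1* (-0.44, adjusted p 0.00282) in WT tamoxifen mice. The 13 fell to 8 without WT placebo mouse 2. In *Bin1* mck-/- placebo mice 1 was lower (*Cars1*, -0.38, adjusted p 0.047), and under tamoxifen in *Bin1* mck-/- 0 were called.

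ER chaperones and folding enzymes, 24 genes besides *Hspa5*, counted 4 higher and 0 lower in *Dnm2* S619L/+ placebo, 9 and 1 in WT tamoxifen and 6 and 0 in *Dnm2* S619L/+ tamoxifen, each against WT placebo. *Manf*, a secreted ER stress factor (0.98, adjusted p 0.00379), and *Sdf2l1* (1.21, adjusted p 0.0189) rose in *Dnm2* S619L/+ placebo mice. *Pdia4*, a disulfide isomerase, rose in WT tamoxifen mice from 14.6 to 16.2 CPM to 29.9 to 68.5 CPM (1.55 ± 0.29, adjusted p 0.0014), and *Txndc5* by 0.93 (adjusted p 0.000839). The 4 higher fell to 1 without *Dnm2* S619L/+ placebo mouse 2. Of the *Bin1* comparisons, placebo mice had 0 called and 2 rose under tamoxifen, *Sil1*, the exchange factor of BiP (0.52, adjusted p 0.0282), and *Dnajb9*, a target of XBP1 (0.59, adjusted p 0.037), which stood at 17.3 to 23.0 CPM on placebo and 22.6 to 34.1 CPM on tamoxifen.

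Of 19 genes of ER-associated degradation tested, 4 were higher and 1 lower in *Dnm2* S619L/+ placebo, 3 and 0 in WT tamoxifen and 5 and 2 in *Dnm2* S619L/+ tamoxifen against WT placebo. The 3 of 19 in WT tamoxifen are at the share of all genes (15.8%). *Edem1*, a target of XBP1, rose in WT tamoxifen mice (1.36 ± 0.29, adjusted p 0.003), while *Herpud1*, a target of ATF6 and ATF4, fell in *Dnm2* S619L/+ tamoxifen against WT placebo (-0.52, adjusted p 0.0129). The 5 higher fell to 1 to 3 when any WT placebo mouse, *Dnm2* S619L/+ placebo mouse 1 or 4, or *Dnm2* S619L/+ tamoxifen mouse 1, 2 or 3 was left out, and to 2 with no filter. Of 20 genes of the translocon, the channel into the ER, 3 were higher and 1 lower in *Dnm2* S619L/+ placebo, 5 and 1 in WT tamoxifen (*Sec61a1*, 1.32, adjusted p 0.000936) and 4 and 2 in *Dnm2* S619L/+ tamoxifen against WT placebo. The 3 became 1 without WT placebo mouse 1 or 4 and 5 without *Dnm2* S619L/+ placebo mouse 3, the 5 became 3 without WT tamoxifen mouse 2, and the 4 became 2 without any of WT placebo mice 1 to 3, WT tamoxifen mouse 3, *Dnm2* S619L/+ placebo mouse 3 or *Dnm2* S619L/+ tamoxifen mice 1 to 3. With no filter the 3, 5 and 4 became 1, 3 and 2, and the 3 became 1 with only the groups compared or the replicate block.

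Against these, 1 gene of ER-associated degradation was higher in *Bin1* mck-/- placebo mice (*Ube2g2*, 0.67, adjusted p 0.0415) and 0 of the translocon. Of 12 mitochondrial chaperones and proteases, the genes of the mitochondrial unfolded protein response, 1 was higher and 4 lower in *Dnm2* S619L/+ placebo (*Hspa9*, -0.60, adjusted p 0.00244), 0 and 7 in WT tamoxifen (*Afg3l2*, -0.39, adjusted p 0.00332) and 0 and 7 in *Dnm2* S619L/+ tamoxifen against WT placebo (*Lonp1*, -0.48, adjusted p 0.00145). The 4 lower became 1 without WT placebo mouse 2 or 3 and 2 without *Dnm2* S619L/+ placebo mouse 1 or 4, and the 7 in WT tamoxifen became 4 without WT placebo mouse 3. Across the *Bin1* cohort 0 of the 12 were called in the 3 comparisons.

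**Figure D3:**
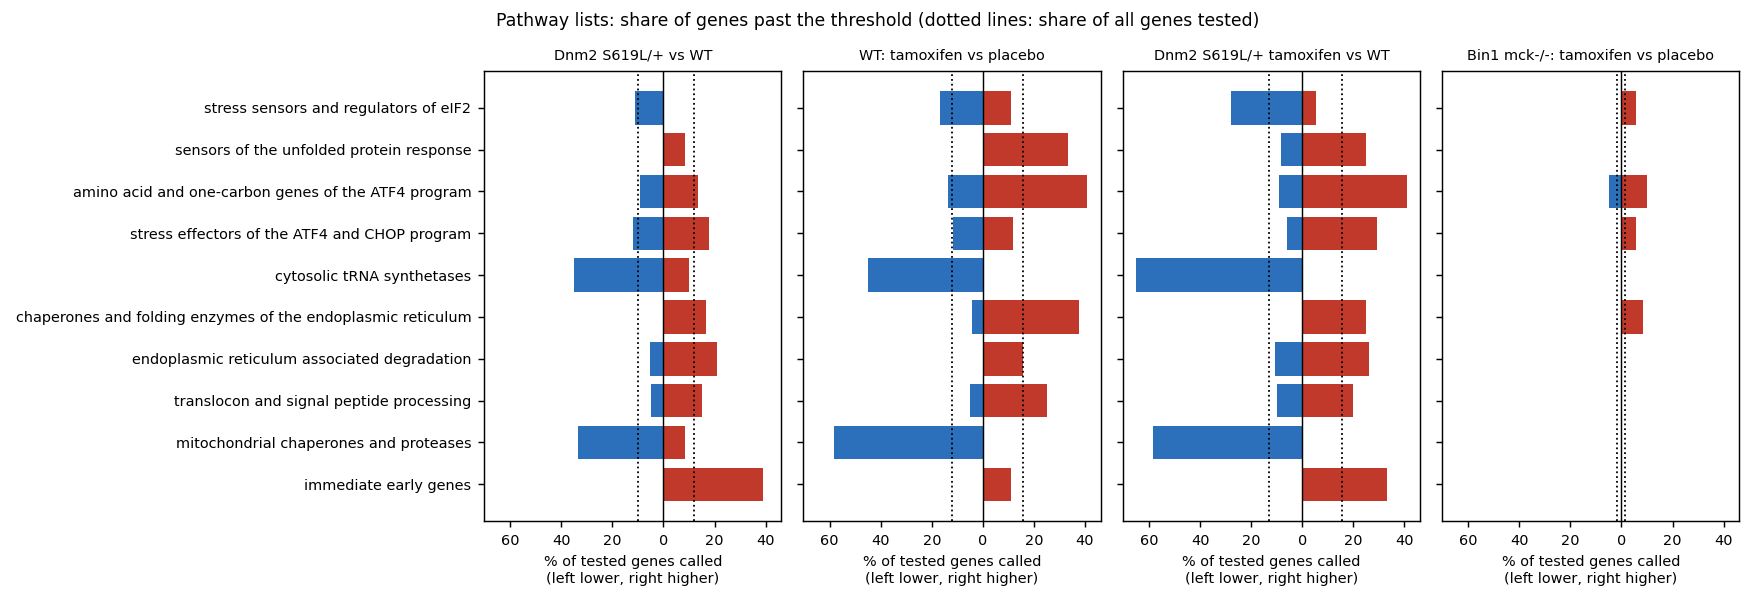
Percent of the tested genes of each pathway list (rows) that were called higher (red, to the right of 0) or lower (blue, to the left) at an adjusted p under 0.05 in 4 comparisons, with dotted lines at the percent of all genes called. The longest bars to the left are the tRNA synthetases (13 of 20) and the mitochondrial chaperones and proteases (7 of 12) in the *Dnm2* cohort.

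The immediate early genes, which respond within minutes to injury or handling of tissue, were counted because *Atf3* can respond in the same way. Of 18 tested, 7 were higher in *Dnm2* S619L/+ placebo, 2 in WT tamoxifen and 6 in *Dnm2* S619L/+ tamoxifen, each against WT placebo, with 0 lower. *Fosl1*, a subunit of AP-1, stood at 0 to 0.0791 CPM in WT placebo and 1.97 to 3.13 CPM in *Dnm2* S619L/+ placebo mice (adjusted p 9.11e-06), and *Junb*, its partner, was higher by 2.23 (adjusted p 0.000906). In *Bin1* mck-/- placebo mice 3 were higher, among them *Ier2* (0.92, adjusted p 0.0365), and these became 0 without any of *Bin1* mck-/- placebo mice 1, 2 or 4 or WT mice 6, 7 or 8, and 1 without WT mouse 5, but 5 with DESeq2 and 7 with only the groups compared. Of all genes, 1.99% were called higher in *Bin1* mck-/- placebo against WT. The part of these immediate early genes in the differences of *Atf3* was not tested.

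Markers of other cells moved with several of these comparisons, and in whole muscle fewer cells of a type and less RNA per cell cannot be told apart. Markers of muscle fibers were present at high levels in all 28 mice, and their sum was 79820 to 99720 CPM in WT tamoxifen and 105100 to 130400 CPM in WT placebo mice, without overlap, with 0 of 6 called there and 3 of 6 called lower in *Dnm2* S619L/+ tamoxifen against WT placebo. Of 4 endothelial markers, 3 were lower in *Dnm2* S619L/+ placebo than in WT placebo mice (median sums 179 and 444.8 CPM). Mitochondrial genes took 19.6% to 25.7% of reads in WT placebo, 16.5% to 19.0% in WT tamoxifen, 13.6% to 17.1% in *Dnm2* S619L/+ placebo and 14.7% to 16.5% in *Dnm2* S619L/+ tamoxifen mice. The part of these shifts in the results was not tested. The summed CPM of 8 osteoblast and osteocyte markers was 157 to 477 in WT placebo, 427 to 581 in *Dnm2* S619L/+ placebo, 3881 to 8596 in WT tamoxifen and 528 to 6734 in *Dnm2* S619L/+ tamoxifen mice, with 7 of 8 higher in each tamoxifen comparison of this cohort. *Col1a1* alone was 126.6 to 419.7 CPM in WT placebo and 413 to 565.7 CPM in *Dnm2* S619L/+ placebo mice. The sums of placebo mice are thus mostly *Col1a1* and cannot be read as a graded level of bone cells. *Ibsp*, which marks bone-forming cells, was at most 0.821 CPM on placebo and 172.5 to 652 CPM in WT tamoxifen mice. *Creb3l1*, *Slc1a4*, *Pdia4* and *Eif2ak3* rose in those same mice, and the part of bone cells in these differences was not tested.

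*Xbp1* and bone markers were set side by side by mouse, and the part of bone cells in its level was not tested. In WT tamoxifen mice the bone marker sum was 3881 to 8596 CPM and *Xbp1* was 98.2 to 105 CPM. The WT placebo mice of that cohort had sums of 157 to 477 CPM and *Xbp1* at 58.1 to 78.7 CPM. *Xbp1* was higher in *Dnm2* S619L/+ placebo mice, whose *Ibsp* was 0 to 0.634 CPM, and it stood at 102 CPM in *Dnm2* S619L/+ tamoxifen mouse 4, which had the lowest bone marker sum of its group (528) and *Ibsp* at 2.41 CPM, beside 93.0 to 101 CPM in the other 3 with *Ibsp* at 87.1 to 293.7 CPM. In the *Bin1* cohort, *Bin1* mck-/- tamoxifen mouse 2, with the highest bone marker sum (2723, *Ibsp* 186 CPM), had the lowest *Xbp1* of its group at 76.0 CPM. In the other 11 mice of that cohort *Ibsp* was 0 to 0.151 CPM, among them the 3 with *Xbp1* at 100 to 104 CPM.

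**Figure D4:**
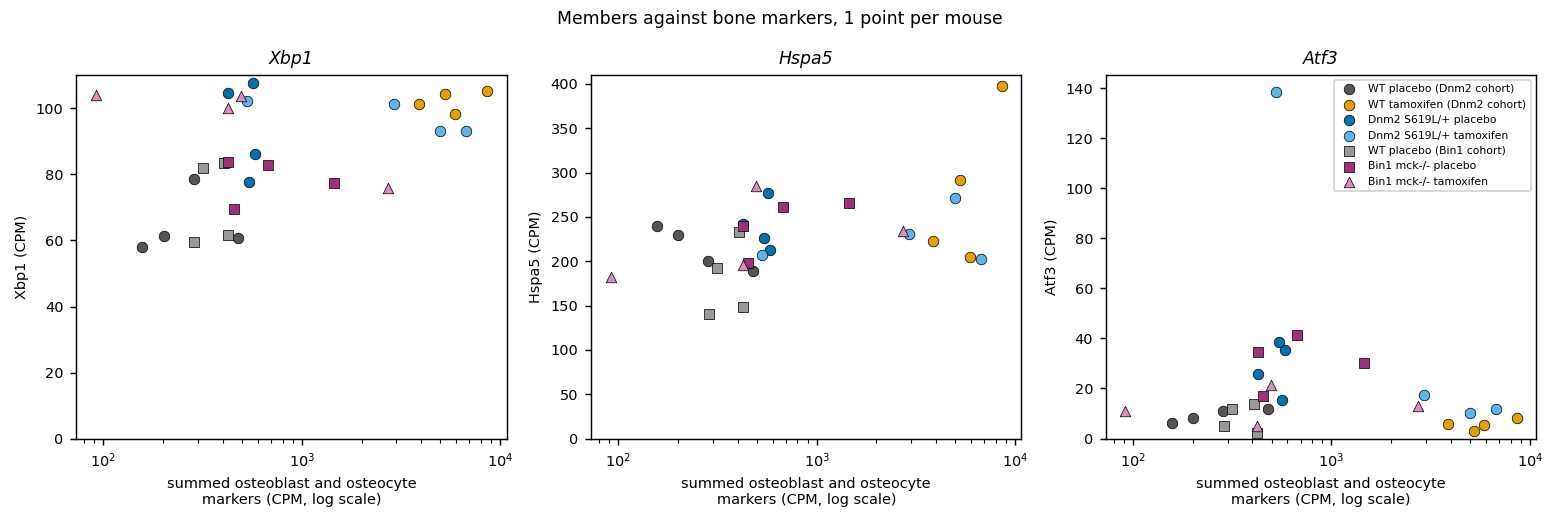
Level of *Xbp1*, *Hspa5* and *Atf3* in CPM (vertical axes) against the summed CPM of 8 osteoblast and osteocyte markers (horizontal axis, log scale) in the mice of both cohorts, with 1 point per mouse and a color and shape for each group. *Xbp1* is at 98.2 to 105 CPM in WT tamoxifen mice, whose marker sums are 3881 to 8596. It is at 102 CPM in the *Dnm2* S619L/+ tamoxifen mouse with the lowest marker sum of its group (528). *Col1a1* alone is 480.8 CPM in that mouse, so a low sum is mostly *Col1a1*.

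The 6 markers of macrophages summed to 63.1 to 107 CPM in WT placebo, 95.2 to 344 in *Dnm2* S619L/+ placebo, 173 to 335 in WT tamoxifen and 113 to 254 in *Dnm2* S619L/+ tamoxifen mice, and to 49.5 to 75.3 in WT, 145 to 282 in *Bin1* mck-/- placebo and 56.3 to 171 in *Bin1* mck-/- tamoxifen mice. The order of group medians in the *Bin1* cohort is that of *Atf3*, while in the *Dnm2* cohort WT tamoxifen mice had a higher macrophage sum than WT placebo mice (5 of 6 markers called) and *Atf3* at 5.57 ± 2.14 beside 9.25 ± 2.65 CPM. The 6 markers of denervated fibers summed to 59.7 to 65.7 CPM in WT placebo and 151 to 316 in *Dnm2* S619L/+ placebo mice, with 6 of 6 higher, and to 64.8 to 80.5 in WT and 77.4 to 191 in *Bin1* mck-/- placebo mice, with 3 of 6 higher. In *Dnm2* S619L/+ tamoxifen mice the denervation sum was 199.5 to 263.7 CPM, with 5 of 6 higher than in WT placebo. *Gadd45a* is itself 1 of these 6 denervation markers, so its level and their sum are not independent. Of all genes, 12.1% were called higher in *Dnm2* S619L/+ placebo and 1.99% in *Bin1* mck-/- placebo mice, each against WT placebo. The part of macrophages and denervated fibers in the levels of *Atf3* and *Gadd45a* was not tested. The sum of 6 B and plasma cell markers was highest in *Dnm2* S619L/+ placebo mouse 4 (688.5 CPM). *Jchain* was 59.3 CPM there and at most 0.804 CPM in the other mice, while *Sdc1*, also a plasma cell marker, was 3.48 CPM there and 20.2 to 56.1 CPM in WT tamoxifen mice. *Xbp1*, which plasma cells express strongly, was 105 CPM in that mouse, and the part of plasma cells in its level was not tested. In the *Dnm2* cohort *Xist*, which is expressed in female cells, was present in 2 of 4 mice of the WT placebo, WT tamoxifen and *Dnm2* S619L/+ placebo groups. It was present in 4 of 4 *Dnm2* S619L/+ tamoxifen mice, so sex cannot be fully told apart from that group. In the *Bin1* cohort it was present in 4 of 4 mice of every group, at 70.84 to 115.3 CPM. Sex therefore also differs between the cohorts. With *Xist* as a covariate, an alternative chosen after seeing the data, *Xbp1* kept its 3 calls and *Atf3* lost its call (log2 fold change 2.09, adjusted p 0.0813). In the same fit, the counts against WT placebo in *Dnm2* S619L/+ tamoxifen mice became 8 lower tRNA synthetases, 5 higher amino acid genes, 3 higher chaperones, 2 higher effectors, 1 higher gene of ER-associated degradation and 2 higher of the translocon.

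Depth was 15586333 to 109710886 reads on genes per mouse in the *Dnm2* cohort and 24671835 to 35136327 in the *Bin1* cohort. *Bin1* checked the labels of its cohort at 539.9 ± 15.7 CPM in WT, 56.2 ± 5.10 in *Bin1* mck-/- placebo and 40.9 ± 6.16 CPM in *Bin1* mck-/- tamoxifen mice. A point mutation of *Dnm2* cannot be seen in counts, and its level was 67.6 ± 4.64 CPM in *Dnm2* S619L/+ placebo and 63.1 ± 1.45 CPM in WT placebo mice.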

How the data were processed

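TA muscle of 28 mice was sequenced from stranded libraries of polyadenylated RNA. For each cohort the authors deposited 1 table of raw counts, that is the whole number of reads on each Ensembl gene, not normalized. The submitters' processing notes name bcl2fastq 2.20.0.422, cutadapt 1.10, Bowtie 1.2.2, STAR 2.5.3, HTSeq 0.6.1p1 and build mm39, with no role or order. In the table of the *Bin1* cohort, 22.0% to 30.8% of counts (median 23.9%) stood on 4 lines that name no gene, and these were left out. Every column of counts belonged to 1 mouse, and groups and replicate numbers came from the sample labels. Names came from GENCODE M21 and no gene coordinates were used. *Ddit3* also names a second, overlapping identifier with no reads in any mouse. Pairs of mice within a group gave a chi-square of 15.6 or more per gene, so none was counted as the same library.

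Counts were tested with edgeR 4.0.16 in R 4.3.3 (TMM, filterByExpr with a minimum count of 10 and total of 15, robust quasi-likelihood), with all mice of a cohort in one fit, a prior count of 2 for log2 fold changes and a Benjamini-Hochberg adjusted p under 0.05 as threshold. The SE is the unshrunk log2 fold change divided by the square root of F. The test was first tried on simulated counts with 200 genes changed. Alternatives were DESeq2 1.42.0, RLE normalization, no filter, more than 10 reads in 90% of mice, a fit of the compared groups alone, a block for the replicate number and omission of each mouse. *Xist* as a covariate and omission of mitochondrial genes were added after seeing the data. Replicate numbers were not treated as pairs in the main fit, and whether they pair mice is not known. Since each mouse is 1 sample, p-values cover the spread between mice.

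The members and lists were chosen with earlier results of these data known, and no enrichment was tested. Named were all 10 members, the up to 2 called genes with the smallest p of each list and comparison, the kinases of eIF2, *Ern1*, *Atf6*, *Ppp1r15a*, *Gdf15*, *Fgf21*, *Dnajb9*, *Herpud1*, the 2 genes nearest in pattern to members whose group means span 1 log2 unit, and defining markers. Figures were drawn with matplotlib 3.10.9.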

Additional observations from a re-analysis of the deposited data

Results flagged for a closer look

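Over the 70 pairs of a member and a group, 5 held a mouse far from the other 3 of its group, where chance flags about 1 in 20 groups. *Atf3* was 138.7 CPM in the highest *Dnm2* S619L/+ tamoxifen mouse and 10.2 to 17.36 in the others. *Atf4* was 122.7 CPM in the lowest WT tamoxifen mouse and 162.1 to 164.7 in the others. *Ddit3* was 14.55 CPM in the lowest *Bin1* mck-/- placebo mouse and 19.56 to 20.56 in the others. *Xbp1* was 76.01 CPM in the lowest *Bin1* mck-/- tamoxifen mouse (100.1 to 104.2 in the others) and 78.71 CPM in the highest WT placebo mouse of the *Dnm2* cohort (58.11 to 61.46 in the others).

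*Atf4* differed in direction between the effects of tamoxifen in WT mice of the *Dnm2* cohort (log2 fold change -0.2047, all tamoxifen mice below all placebo mice) and in *Bin1* mck-/- mice (0.3882, all above). This difference between cohorts was not tested, and neither effect was called by edgeR. Among all genes, 2130 of 15439 lay wholly lower in the first comparison and 696 of 14841 wholly higher in the second.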

How the results depend on the processing

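*Xbp1* kept its 3 calls in every alternative run and *Ddit3* kept its call in all but 1. The number of members called became 3 in *Dnm2* S619L/+ placebo against WT placebo with only the groups compared, 1 in *Dnm2* S619L/+ tamoxifen against WT placebo with no filter, only the groups compared, the replicate block or *Xist* as a covariate, 1 in the interaction with DESeq2, 3 with DESeq2 and 1 with only the groups compared in *Bin1* mck-/- placebo against WT, and under tamoxifen in *Bin1* mck-/- 2 with DESeq2 and 1 with the stricter filter, only the groups compared or the replicate block. With 1 mouse left out, members called ranged from 1 to 2, 2 to 3, 0 to 1, 1 to 3 and 0 to 1 (interaction) in the *Dnm2* cohort and 0 to 1, 0 to 2 and 0 to 0 in the *Bin1* cohort, in the order of the report. The cause was not tested. Group means of members stayed within 1 SD in 46 of 70 cases with mitochondrial genes left out, and in 70 of 70 under RLE. Leaving out mitochondrial genes raised the means of all groups together. *Atf4* went from 176 to 215 CPM in WT placebo and from 166 to 201 CPM in *Dnm2* S619L/+ placebo mice. The 46 therefore reflects the size of each SD more than a shift between groups.

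Genes called over all genes moved beyond 1.5 times in tamoxifen against placebo in *Dnm2* S619L/+ (1277) to 814 with no filter, 30 with only the groups compared, 843 with the replicate block and 497 with *Xist*, in *Dnm2* S619L/+ tamoxifen against WT placebo (4461) to 2844 with *Xist*, and in the interaction (40) to 327 with DESeq2, 20 with RLE, 16 with the stricter filter, 10 with the block and 115 with *Xist*. In the *Bin1* cohort they moved in *Bin1* mck-/- placebo against WT (388) to 1191 with DESeq2 and 1458 with only the groups compared, under tamoxifen (464) to 1223, 122 and, with the block, 152, and in *Bin1* mck-/- tamoxifen against WT (126) to 544 with DESeq2 and 210 with no filter. With 1 mouse left out they ranged, in the same order, from 2034 to 3953, 2769 to 4825, 368 to 2562, 2955 to 5497, 1 to 293, 18 to 759, 160 to 1253 and 42 to 266.

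Same-numbered mice of different groups correlated between -0.32 and 0.33 over 24 pairs in the *Dnm2* cohort and between -0.18 and 0.15 over 4 in the *Bin1* cohort. Mice with different numbers were not compared in this way, so this check cannot decide whether the numbers pair mice. Members near 0 changed sign. Without omission of mice, these were tamoxifen in *Dnm2* S619L/+ for *Xbp1* (-0.0133 with *Xist*) and *Atf4* (0.0013 with the stricter filter, 0.025 with only the groups compared and 0.021 with *Xist*), and the interaction of *Asns* (-0.12 with *Xist*). With 1 mouse left out, the ranges of log2 fold changes that crossed 0 were as follows. In *Dnm2* S619L/+ placebo against WT placebo, the range was *Sesn2* -0.15 to 0.23, *Asns* -0.40 to 0.16 and *Trib3* -0.39 to 0.0017. In WT tamoxifen against WT placebo, the range was *Trib3* -0.00788 to 0.41 and *Atf5* -0.0543 to 0.15. Under tamoxifen in *Dnm2* S619L/+, the range was *Xbp1* -0.0312 to 0.12, *Ddit3* -0.27 to 0.0454, *Atf3* -1.12 to 0.96, *Hspa5* -0.17 to 0.00308, *Chac1* -0.27 to 0.66 and *Atf4* -0.0735 to 0.0685. In *Dnm2* S619L/+ tamoxifen against WT placebo, the range was *Hspa5* -0.00849 to 0.15 and *Trib3* -0.0367 to 0.37. In the interaction, the range was *Atf3* -0.36 to 1.72, *Asns* -0.21 to 0.35 and *Trib3* -0.0396 to 0.42. In *Bin1* mck-/- placebo against WT, the range was *Sesn2* -0.013 to 0.19 and *Trib3* -0.54 to 0.0172. Under tamoxifen in *Bin1* mck-/-, the range was *Sesn2* -0.15 to 0.14, *Asns* -0.0587 to 0.31 and *Trib3* -0.19 to 0.37. In *Bin1* mck-/- tamoxifen against WT, the range was *Sesn2* -0.0617 to 0.22 and *Trib3* -0.37 to 0.0494. Of these, only *Atf3* under tamoxifen in *Dnm2* S619L/+ passed the threshold after the change of sign, without mouse 4. *Trib3* had as few as 12 reads in a mouse and *Asns* 15, which limits what their comparisons can show.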
